A study of Mus musculus with 6 samples.

Results

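The genes Ndrg4, Agpat4, Ss18l2, Epn3, Plekha6, Snapin, Efna1, Gon4l and Gm2a, 9 of the 22298 genes in the deposited table, were described in mouse hearts. They were chosen by their measured RNA levels, which were lower in every heart after TAC than in every sham heart, so their difference between the groups is a description here and carries no test. All 9 passed the filter on low counts. The hearts came from wild-type female mice aged 18 months, 3 of them sham-operated and 3 with TAC. In this field TAC stands for transverse aortic constriction, a band around the aorta that makes the left ventricle pump against pressure. The labels list no transgene or drug, do not say that each sample is another animal, and give no time between surgery and sampling. Poly(A) RNA of heart tissue was sequenced once per sample. The question was whether TAC replicate 1, which otherwise stood between the groups, already had the level of the other TAC hearts for these genes, and whether the stress genes of the heart did too.

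The 9 genes belong to no single pathway. Ndrg4 is the NDRG family member of heart and brain, and its loss in zebrafish impairs heart growth. Agpat4 is an acyltransferase of the family that makes phosphatidic acid, the precursor of membrane phospholipids and triglycerides, and Gm2a is the lysosomal activator protein that presents GM2 ganglioside for breakdown. Epn3 is an epsin, an adaptor that bends membrane at clathrin-coated pits, and Snapin is a subunit of the lysosome and vesicle positioning complexes BLOC-1 and BORC. Efna1 is a membrane-anchored ligand of EphA receptors, prominent in endothelium, and Plekha6 is a pleckstrin-homology protein of a family found at cell junctions. Ss18l2 is a small relative of SS18, a subunit of the BAF chromatin remodelling complex, and Gon4l is a nuclear regulator that binds the transcription factor YY1.

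The sequences around the start sites of the 3 genes with the largest differences are shown because these genes moved together between the groups. They are RefSeq promoter windows on GRCm38.p6, 250 bases before to 50 bases after a start, plus strand, 5′ to 3′. For Ndrg4, with 4 listed starts, the one nearest the annotated gene start is given (chr8:95676724-95677023). Those of Agpat4 (chr17:12119034-12119333) and Ss18l2 (chr9:121710139-121710438) are the only ones listed. Capitals mark exact matches, on either strand, to 6 motifs. The promoter motifs were the box of letters CCAAT, the core of a GC-rich box written GGGCGG, and the TATA-type motif TATAAA. The factor motifs were the E-box spelled CACGTG, the AP-1 type motif spelled TGACTCA and the cyclic AMP response element spelled TGACGTCA.
Ndrg4: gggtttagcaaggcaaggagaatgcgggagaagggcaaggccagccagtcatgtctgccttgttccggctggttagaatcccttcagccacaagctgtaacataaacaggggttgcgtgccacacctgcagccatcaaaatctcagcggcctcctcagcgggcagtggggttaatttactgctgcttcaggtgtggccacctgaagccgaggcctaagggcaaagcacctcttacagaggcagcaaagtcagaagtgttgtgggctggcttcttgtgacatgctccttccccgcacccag
Agpat4: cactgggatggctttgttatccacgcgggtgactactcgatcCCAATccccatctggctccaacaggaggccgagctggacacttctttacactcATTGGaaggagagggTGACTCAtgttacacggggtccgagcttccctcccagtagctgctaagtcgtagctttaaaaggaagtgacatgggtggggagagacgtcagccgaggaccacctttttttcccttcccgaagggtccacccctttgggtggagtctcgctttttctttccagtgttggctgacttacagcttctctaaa
Ss18l2: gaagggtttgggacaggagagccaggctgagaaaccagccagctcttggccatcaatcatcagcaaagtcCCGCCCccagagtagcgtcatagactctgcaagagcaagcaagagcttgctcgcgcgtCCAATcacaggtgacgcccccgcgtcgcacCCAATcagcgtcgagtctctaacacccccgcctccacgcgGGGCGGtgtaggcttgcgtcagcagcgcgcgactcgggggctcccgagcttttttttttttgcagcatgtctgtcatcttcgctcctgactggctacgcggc

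The windows of the 9 genes did not look alike. Of the 9 genes, 7 had windows in the table, 11 in all, and Snapin and Epn3 had none listed there. The Ss18l2 window held 24 CpG dinucleotides, that of Agpat4 11 and the printed one of Ndrg4 7. The median of all 32851 windows was 7 and the upper quartile 20. The other windows of Ndrg4 held 31, 40 and 11, those of Efna1, Gm2a and Gon4l 20 to 23, and that of Plekha6 4. GGGCGG was found in windows of Ss18l2, Efna1, Gm2a and Ndrg4, and in 35.7% of all windows. CCAAT was found in windows of Ss18l2, Agpat4 and Ndrg4, and in 37.4% of all windows. The single TGACTCA was in Agpat4, and 5.20% of all windows hold it. CACGTG and TATAAA were each found only in a downstream window of Ndrg4, against 7.15% and 13.6% of all windows, and TGACGTCA in none of the 11, against 1.79%. The windows of Plekha6 and Gon4l held none of these motifs.

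Values are CPM (counts scaled to library size, with TMM factors), unless given as FPKM, the deposited value scaled also by gene length. Per length, Ndrg4 was the most abundant of the 9 in sham hearts, at 117.95 ± 2.78 FPKM (SD, n = 3), followed by Snapin at 36.7 ± 1.00 and Ss18l2 at 36.0 ± 4.35 FPKM, which did not differ beyond their spread. Plekha6 at 27.3 ± 2.73 and Efna1 at 23.3 ± 2.98 FPKM also lay within each other's spread. Gm2a, Gon4l, Epn3 and Agpat4 followed at 10.8 ± 1.62, 10.3 ± 0.896, 8.26 ± 1.51 and 5.13 ± 1.23 FPKM. In TAC hearts the leading place was shared. Efna1, Ndrg4, Snapin and Plekha6 lay between 13.6 and 16.6 FPKM on average, and Agpat4 was at 0.36 ± 0.10 FPKM.

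**Figure D1:**
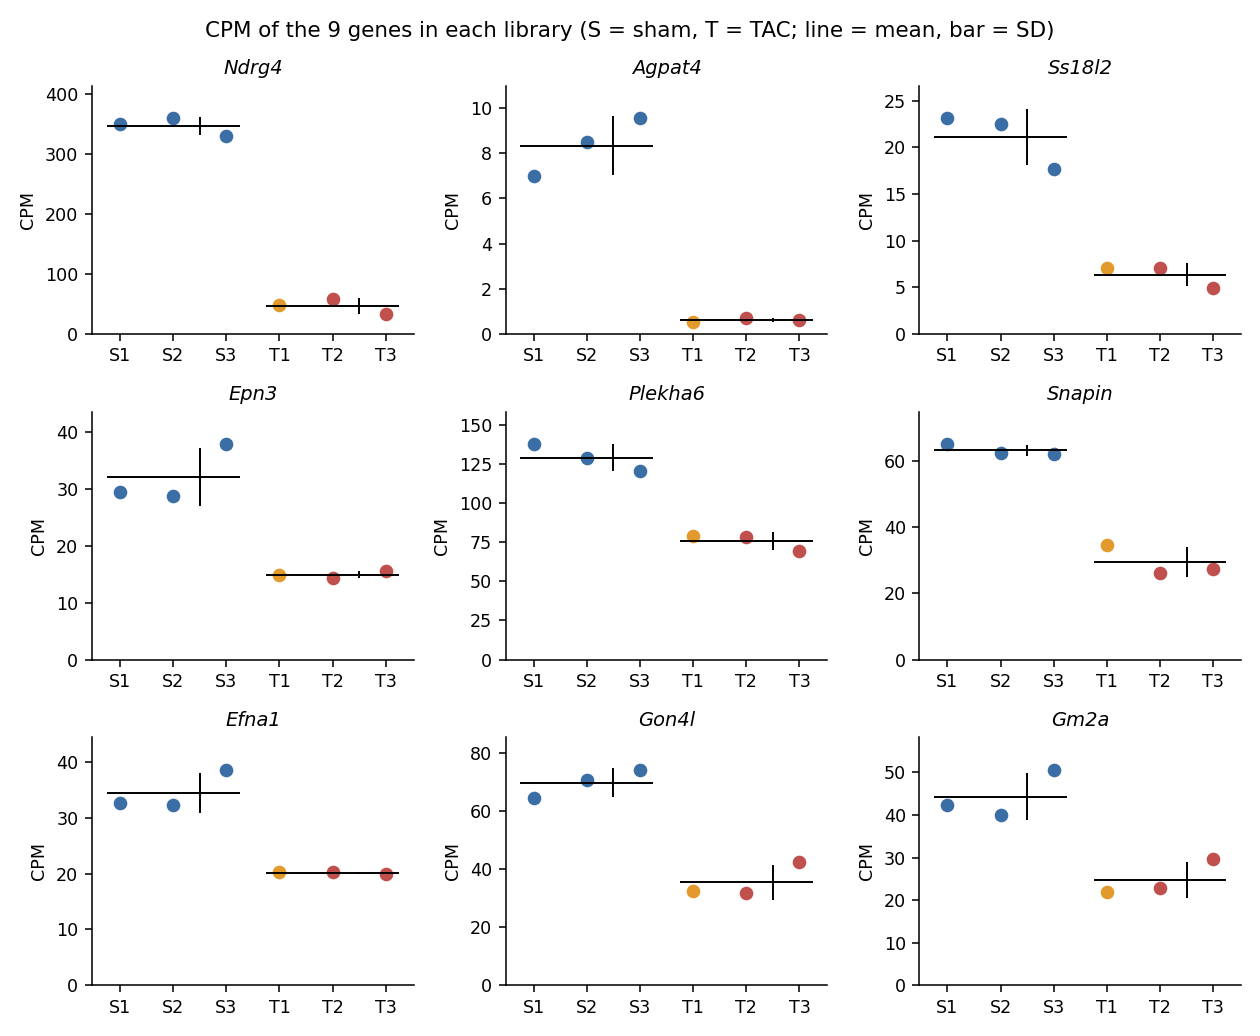
CPM of each of the 9 genes (y axis, from 0) in sham replicates 1 to 3 (S1 to S3, blue) and TAC replicates 1 (T1, orange), 2 and 3 (T2, T3, red), with the group mean as a line and the SD as a bar. In all 9 panels the 3 TAC values lie below the 3 sham values, and the orange point lies among or close to the red ones.

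Ndrg4 (ENSMUSG00000036564, chromosome 8, 95676980 to 95715119, plus strand in GRCm38) had 350.3, 359.6 and 329.7 CPM in sham replicates 1, 2 and 3. In TAC replicates 1, 2 and 3 it had 48.9, 57.8 and 32.5 CPM. Every TAC heart was far below every sham heart, with the widest spread of the 9 genes among TAC hearts. The mean was 7.47-fold lower in TAC (log2 fold change -2.90, SE 0.22). Markers of cardiomyocytes, a main source of heart RNA, summed to 40196 to 41347 CPM in sham. In TAC replicates 1, 2 and 3 the sum was 40383, 36358 and 28935 CPM, so the sum in replicate 1 lay in the sham range. None of the 6 single markers did: Myh6 and Ryr2 lay below their sham values there, and Actc1, Pln, Tnni3 and Tnnt2 above. None of the 6 passed the test, and their part in the lower Ndrg4 was not tested. Markers of neurons, the other known site of Ndrg4, summed to 20.7 to 25.9 CPM in sham and 26.5 to 29.6 CPM in TAC. Of 5 tested, 4 were higher by sign without passing: Tubb3 by 1.22, Snap25 by 0.31, Stmn2 by 0.28 and Syp by 0.01 in log2. Only the sympathetic gene Dbh passed, and it was lower, at -1.52 in log2 (SE 0.28; adjusted p = 0.0439, edgeR). In bulk heart RNA, fewer cells of a type and less RNA per cell cannot be told apart.

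Of the lipid genes, Agpat4 was nearly lost. Agpat4 (ENSMUSG00000023827, chromosome 17, 12118704 to 12219645, plus strand) had 6.98, 8.50 and 9.56 CPM in the sham libraries and 0.529, 0.695 and 0.595 CPM in TAC replicates 1, 2 and 3. The latter rest on 13, 16 and 14 reads, against 136 to 231 in sham, so the TAC level is known only coarsely. TAC replicate 1 was the lowest of all 6 libraries. The mean was 13.8-fold lower (log2 fold change -3.77, SE 0.24). Gm2a (ENSMUSG00000000594, chromosome 11, 55098115 to 55113029, plus strand) changed far less. It had 42.3, 40.0 and 50.7 CPM in sham and 21.9, 22.8 and 29.7 CPM in TAC, 1.79-fold lower on average (log2 fold change -0.84, SE 0.16). The highest TAC value, in replicate 3, came within 1.35-fold of the lowest sham value, the narrowest distance among the 9.

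The membrane traffic genes Epn3 and Snapin stood at 46.6% and 46.5% of their sham level. Epn3 (ENSMUSG00000010080, chromosome 11, 94489599 to 94499974, minus strand) had 29.5, 28.7 and 37.8 CPM in sham and 14.9, 14.2 and 15.6 CPM in TAC. The TAC hearts were nearly equal, with a highest value 1.10 times the lowest. Epn3 is best known from epithelia, and a list of epithelial and mesothelial markers summed to 41.2 to 187 CPM in sham and 57.1 to 91.9 CPM in TAC, with overlap between the groups. Sham replicate 1 had 41.2 CPM of this sum and replicates 2 and 3 had 160 and 187 CPM, of which Upk3b alone held 23.1, 88.8 and 106 CPM. Of the 6 markers tested, 5 were lower and 1, Cdh1, higher by sign, and none passed the edgeR test. The epithelial marker Epcam had 2 to 6 reads in sham and 6 to 61 in TAC and was too low to be tested. Snapin (ENSMUSG00000001018, chromosome 3, 90488026 to 90491033, minus strand) had 65.3, 62.5 and 62.2 CPM in sham and 34.6, 26.2 and 27.6 CPM in TAC, 2.15-fold lower on average (log2 fold change -1.10, SE 0.13). It is the gene in which TAC replicate 1 was highest relative to the other TAC hearts, at 129% of their mean. Its counts were fractional, for a reason the sources do not state, and its end overlaps Ilf2 on the other strand by 354 bases. Ilf2, a subunit of a double-stranded RNA-binding complex, differed by 0.13 in log2 (SE 0.15; adjusted p = 0.622, edgeR).

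The cell contact genes Efna1 and Plekha6 kept 58.4% and 58.6% of their sham level. Efna1 (ENSMUSG00000027954, chromosome 3, 89271733 to 89281142, minus strand) had 32.6, 32.2 and 38.6 CPM in sham and 20.3, 20.2 and 19.9 CPM in TAC. The 3 TAC hearts agreed within 1.02-fold, the tightest of any of the 9 genes. Endothelial markers summed to 1425 to 1512 CPM in sham and 1167 to 1267 CPM in TAC, without overlap. Of those 6 markers only the receptor gene Tie1 passed (log2 fold change -0.63, SE 0.11, edgeR adjusted p = 0.0414). By sign, 5 of the 6 were lower in TAC. The other, Emcn, had 77.7 to 87.7 CPM in sham and 103 to 110 CPM in TAC (log2 fold change 0.38, SE 0.10). The part of endothelial RNA in the lower Efna1 was not tested. Plekha6 (ENSMUSG00000041757, chromosome 1, 133164210 to 133303435, plus strand) had 138, 129 and 121 CPM in sham and 79.4, 78.6 and 69.2 CPM in TAC. In TAC hearts it had more reads than any other of the 9 genes, and its log2 fold change was -0.77 (SE 0.11).

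The nuclear genes Ss18l2 and Gon4l differed in size of change. Ss18l2 (ENSMUSG00000032526, chromosome 9, 121710329 to 121713388, plus strand) had 23.1, 22.5 and 17.7 CPM in sham and 7.04, 7.08 and 4.93 CPM in TAC, 3.33-fold lower on average (log2 fold change -1.73, SE 0.19). Replicate 3 was the lowest library of each group. Gon4l (ENSMUSG00000054199, chromosome 3, 88835231 to 88910103, plus strand) had 64.2, 70.6 and 74.2 CPM in sham and 32.4, 31.6 and 42.4 CPM in TAC, 1.96-fold lower on average (log2 fold change -0.97, SE 0.14). Its counts were fractional, and it overlaps Msto1 on the other strand by 4997 bases. Msto1, a gene of mitochondrial distribution, differed by -0.05 in log2 (SE 0.16; adjusted p = 0.866, edgeR).

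TAC replicate 1 had the level of the other TAC hearts in most of the 9 genes, and not in the stress genes. The measure was the percent of the log2 difference between the sham mean and the mean of TAC replicates 2 and 3 that TAC replicate 1 already showed, 0% being the sham mean. For Ndrg4, Agpat4, Epn3 and Efna1 it was 94.2%, 107%, 100.1% and 97.7%. In Gon4l (119%) and Gm2a (133%) replicate 1 lay beyond the mean of the other TAC hearts. In Plekha6 (86.9%), Ss18l2 (86.2%) and Snapin (70.6%) it lay short of that mean. Their median was 97.7%. The choice of genes low in every TAC heart fixes part of this.

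The stress genes of the heart stood elsewhere in TAC replicate 1. Nppb, which encodes natriuretic peptide B, had 42.7, 36.9 and 47.4 CPM in sham and 167, 564 and 842 CPM in TAC replicates 1, 2 and 3, so that replicate 1 showed 49.2% of the log2 rise. Myh7, the slow myosin heavy chain, had 133 CPM in TAC replicate 1 against 1189.9 and 787 CPM in replicates 2 and 3 (36.6%). Ankrd1, a sarcomere-linked stress gene, had 936 against 1338 and 2657 CPM (66.9%). These 3 of 13 tested stress genes passed the edgeR test, each upward, and 10 did not, while 1.12% of all genes tested were called higher. The skeletal actin gene Acta1 was at 417 CPM in TAC replicate 1, inside its sham range of 232 to 486 CPM, and at 1150.5 and 1004 CPM in the others. The peptide gene Nppa, at 1847 CPM in TAC replicate 1, was also inside its sham range of 1286 to 2078 CPM. TAC replicate 3, at 2046 CPM, lay inside that range too, and replicate 2 had 2449 CPM. Of the 9 stress genes that differed by at least 1 log2 unit between sham and TAC replicates 2 and 3, TAC replicate 1 showed 7.54% to 66.9%, with a median of 29.2%. Without TAC replicate 1 itself, 12 stress genes were called higher. The count was 0 without TAC replicate 2 and 0 without sham replicate 1, 2 or 3.

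The position of TAC replicate 1 varied across the other genes. Among 537 other genes at least 1 log2 unit lower in TAC replicates 2 and 3, the median percent in TAC replicate 1 was 27.3% (quartiles 4.78% and 51.6%). Of them 43, or 8.01%, reached 90%, as did 6 of the 9 genes. These 537 were selected without the value of TAC replicate 1 and the 9 genes were not, so the shares are set side by side without a test. Nor did the 9 genes have to meet the minimum of 1 log2 unit. Fitted without TAC replicate 1, Plekha6, Efna1, Gon4l and Gm2a had log2 fold changes of -0.82, -0.80, -0.93 and -0.77. Among 65 other genes called lower, which had to be low in TAC replicate 1 too, the median was 80.4%, and 23 (35.4%) reached 90%. Rising genes, stress genes included, gave a median of 42.9% (quartiles 22.8% and 64.6%) among 976 at least 1 log2 unit higher in TAC replicates 2 and 3. In the 153 genes called higher the median was 76.7%, and 49 (32.0%) reached 90%. On linear CPM the median of the 9 genes was 98.8%, and that of the 3 called stress genes was 18.8%.

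**Figure D2:**
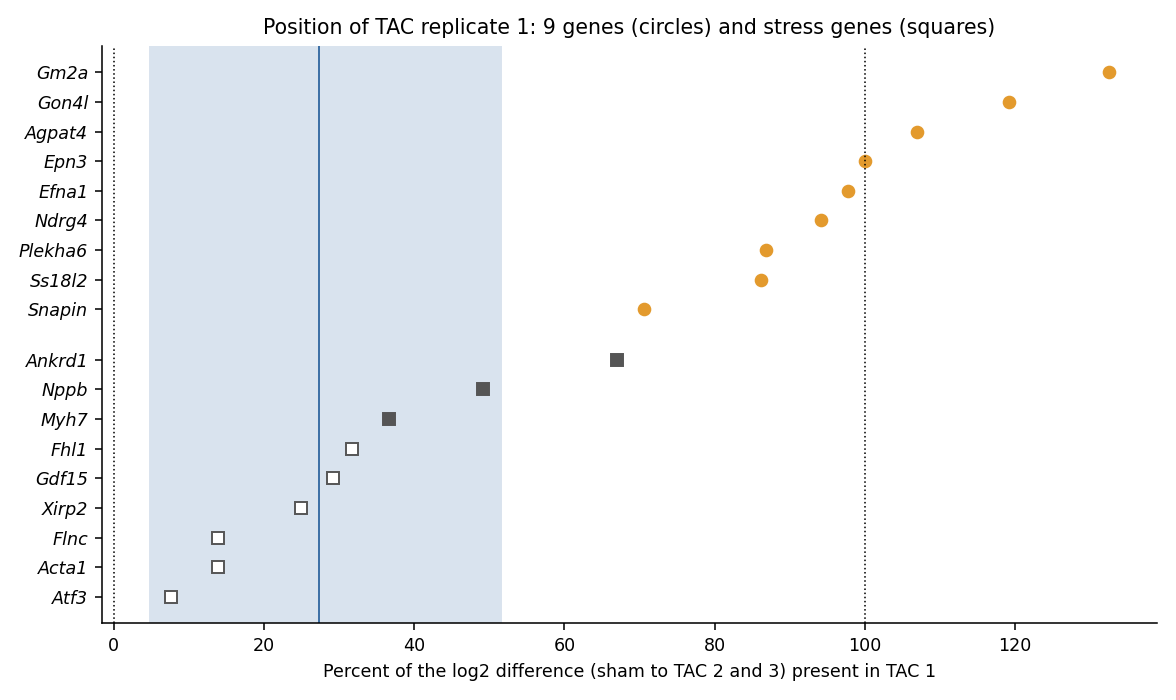
Percent of the log2 difference between sham and TAC replicates 2 and 3 that was present in TAC replicate 1 (x axis; 0 is the sham mean, 100 the mean of TAC replicates 2 and 3), for the 9 genes (circles) and the 9 stress genes with a difference of at least 1 log2 unit (squares, filled where edgeR called the gene). The band and line give the quartiles and median of 537 other lower genes. The circles lie between 70.6% and 133%, and the squares between 7.54% and 66.9%. No minimum difference was set for the circles.

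The summed level of the 9 genes shows the same arrangement of libraries. It was 752, 754 and 741 CPM in the sham libraries and 260, 259 and 242 CPM in TAC replicates 1, 2 and 3. Ndrg4 made up the largest part in each sham library and Plekha6 in each TAC library. Over all genes TAC replicate 1 stood apart from both groups. On the first principal component, with 54.6% of the variance of log2 CPM, it lay at 0.653, sham libraries at -37.3 to -31.4 and TAC replicates 2 and 3 at 48.9 and 53.5. The stress genes summed to 3542 to 4114 CPM in sham, 5343 in TAC replicate 1, 9511 in replicate 2 and 12590 in replicate 3. Library totals were 19747265 to 27549838 estimated counts.

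The 9 genes formed no separate class by the size of the gap between the groups, measured as the lowest sham minus the highest TAC value in log2 CPM. Agpat4 had a gap of 3.18, the second of 13708 genes tested, Ndrg4 one of 2.51 at rank 5 and Ss18l2 one of 1.31 at rank 19. Epn3 (0.87), Snapin (0.84), Efna1 (0.66), Plekha6 (0.61), Gon4l (0.60) and Gm2a (0.43) followed at ranks 43 to 186. Thus 3 of the 9 had every TAC heart at or below 50% of the lowest sham heart, as had 0.241% of all genes tested. Another 177 genes had a gap at least as large as that of Gm2a, which makes 1.36% of all genes tested with the 9 included. Just outside it were Sorcs2 (0.43) and Arhgef11 (0.42), and just inside St5 and P2ry14 (0.43 each). All 9 lay without overlap, the property they were chosen for, as did 13.1% of all genes tested in that direction and 31.4% in either direction. All 9 were also among the 74 genes called lower, 0.54% of those tested, which the choice of genes fixes.

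**Figure D3:**
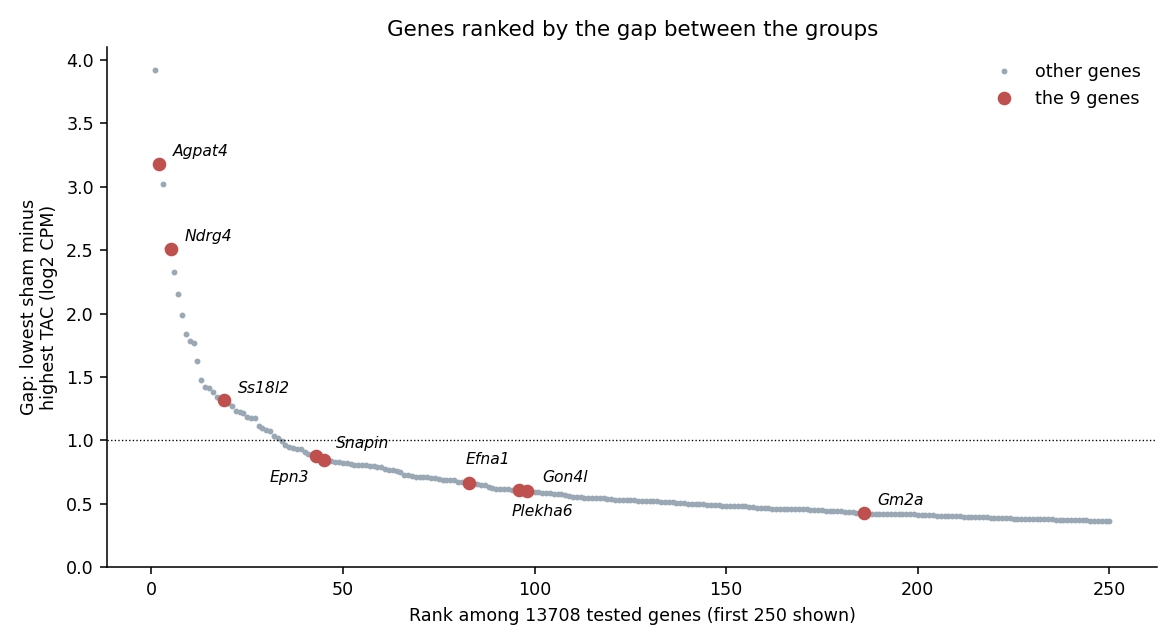
The 250 genes with the largest gap between the groups, by rank (x axis) and gap in log2 CPM (y axis, lowest sham minus highest TAC library), with the 9 genes in red and a dotted line at 1 log2 unit. Agpat4, Ndrg4 and Ss18l2 lie above the line, and the other 6 lie along the flat part of the curve among many other genes.

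Among other genes averaging 1 CPM or more over both groups and with a symbol that is no clone or model name, the largest gaps were in Pttg1, Cyfip2, Olfr1396, Aplnr and Col4a3. Outside these limits, and named after their values were seen, Gm16867 had a gap of 2.52 and Olfr1033, at 1.48 CPM in sham, one of 2.33. Pttg1, which encodes securin, the inhibitor of separase, had 59.2, 63.6 and 64.0 CPM in sham and 3.83, 3.47 and 3.57 CPM in TAC, with a gap of 3.92, the largest of all. Cyfip2, a subunit of the WAVE actin regulator, went from 163 to 194 CPM in sham to 11.3 to 20.1 CPM in TAC. These 2 and the olfactory receptor gene Olfr1396 lie on chromosome 11 between 43420250 and 49114874, and Gm2a and Epn3 lie further along that chromosome. Aplnr, the apelin receptor, had 80.1 to 98.0 CPM in sham and 18.1 to 20.2 CPM in TAC. Col4a3, a basement membrane collagen chain, had 13.1 to 14.3 and 3.02 to 3.60 CPM. TAC replicate 1 showed 91.2% to 104% of the difference in the 5 genes within the limits, 185% in Gm16867 and 135% in Olfr1033. Over the 6 libraries, which fall into 2 groups, the log2 CPM of the 5 correlated with the median profile of the 9 genes at Pearson r of 0.89 to 1.00. Both sets were chosen as low in every TAC heart, which fixes much of these percents and correlations, so they are no sign of likeness. In the other direction 98 genes, 0.715% of those tested, had every TAC library at or above 2 times the highest sham library. Within the same limits the largest such gaps were in Tpm3-rs7 (7.50), the neutrophil granule gene Ngp (3.57), the chemokine gene Ccl8 (3.51), the macrophage lectin gene Chil3 (3.32) and the immunoglobulin gene Ighg2b (3.12), and outside them Gm20390, at 0 CPM in sham, had one of 4.51.

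Spread within the groups was ordinary. The median within-group SD of the 9 genes was 0.18 in log2 CPM, against 0.22 over all genes tested and 0.22 over all genes called lower. It ranged from 0.10 in Plekha6 and Efna1 to 0.30 in Ndrg4. No library was lowest or highest throughout. The lowest TAC heart was replicate 1 for Agpat4 and Gm2a, replicate 2 for Epn3, Snapin and Gon4l, and replicate 3 for Ndrg4, Ss18l2, Plekha6 and Efna1.

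A second readout of the table, the gene length implied by the deposited count and FPKM together, was not used to choose the genes. It rests on the assumption that FPKM was scaled by the total of the count column. If so, it is the length the deposited values assign to a gene in that library, and what moves it was not tested. In Snapin it was 1723, 1737 and 1720 bases in the sham libraries and 1850, 1785 and 1806 bases in TAC replicates 1, 2 and 3. In Gon4l it was 6749, 6816 and 6812 bases in sham and 6685, 6273 and 5941 bases in TAC. For Ndrg4 it was 2939, 2936 and 2935 bases in sham and 2902, 2916 and 2903 bases in TAC. In these 3 genes the groups did not overlap. The TAC mean differed from the sham mean by 5.03% in Snapin, -7.26% in Gon4l and -1.02% in Ndrg4. For each of them an exact permutation test, two-sided, returned p = 0.1, the smallest that 3 against 3 samples allow, and 0.3 after Benjamini-Hochberg adjustment over the 9 genes. Of 7847 genes with enough reads for this measure, 6.64% had separate groups with means over 1% apart.

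**Figure D4:**
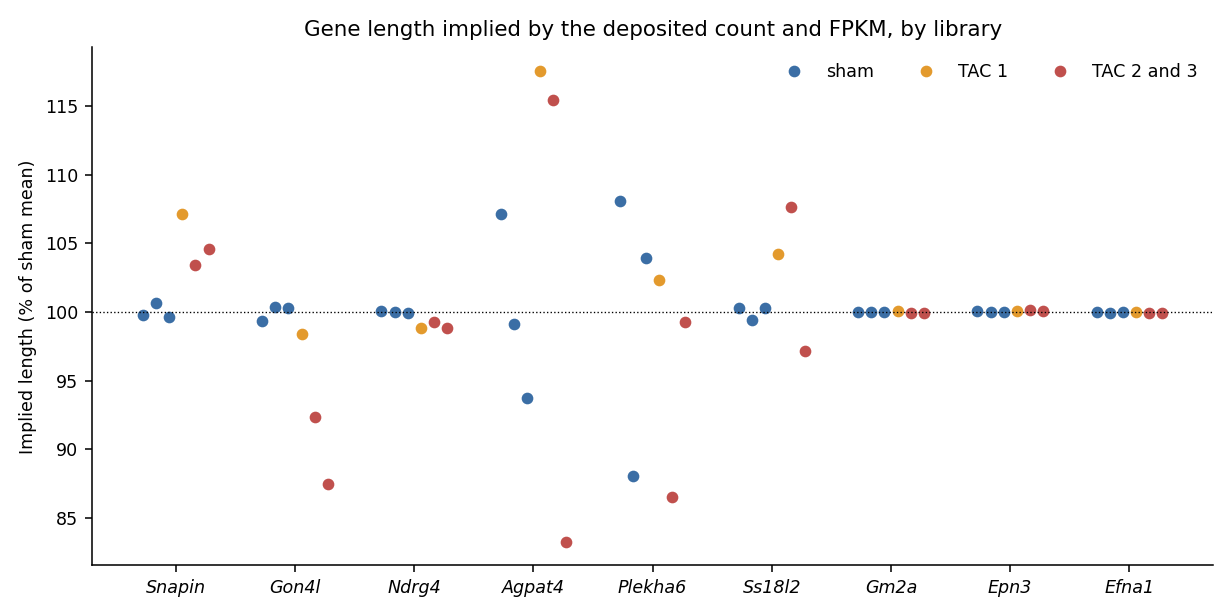
Gene length implied by the deposited estimated count and FPKM, as percent of the sham mean (y axis), for each of the 9 genes and 6 libraries (blue sham, orange TAC replicate 1, red TAC replicates 2 and 3, in replicate order from left to right). Snapin lies above and Gon4l below the sham libraries in every TAC library, and Gm2a, Epn3 and Efna1 stay at 100% in all 6.

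In the other genes the implied length did not separate the groups. Gm2a, with a single annotated transcript of 4127 bases in GENCODE M21, was at 4124 to 4129 bases in all libraries, and Epn3 and Efna1 ranged by 0.162% and 0.135% of their mean. Plekha6, with 12 annotated transcripts, ranged by 22.0%, from 4115 to 5138 bases, with replicate 2 shortest in both groups. Agpat4 and Ss18l2 ranged by 33.4% and 10.4%, on few reads in TAC. For these 6 genes the exact permutation p ranged from 0.2 to 0.8.

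None of the relatives and partners of the 9 genes passed the edgeR test. Across 9 lists of the same families, complexes or pathways, 101 genes were tested and 0 were called in either direction (edgeR quasi-likelihood test, Benjamini-Hochberg adjustment over 13708 genes), where 1.66% of all genes were called. At an unadjusted p under 0.05, 10 were higher and 6 lower, against 16.3% and 9.26% of all genes. DESeq2 called the clathrin assembly gene Picalm and the lysosomal glucuronidase gene Gusb higher and Agpat3, Gpam and Plekha5 lower, where it called 7.26% of all genes higher and 4.06% lower. With limma-voom 0 were called. The median log2 fold change of the 101 genes was 0.03, equal to that of all genes tested. Without TAC replicate 1 in the edgeR fit, 7 were called higher and 7 lower, where 1837 and 1392 of all genes were.

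Among the relatives of Ndrg4, all 3 were tested and none passed. Ndrg2, which at 525 FPKM in sham was more abundant per length than Ndrg4, differed by -0.30 in log2 (SE 0.16; adjusted p = 0.282, edgeR), and Ndrg1 and Ndrg3 had -0.02 and 0.08. In phosphatidic acid synthesis 12 of 15 listed genes were tested, with a median of -0.17 and 9 negative. Of the 12, 3 lay without overlap on the low side, against 13.1% of all genes tested. The list of epsins and clathrin endocytosis and that of the SS18 family and BAF complex held 3 such genes each too. The most abundant per length, Agpat3 at 84.6 FPKM in sham, averaged 224 ± 3.64 CPM in sham hearts against 157 ± 19.6 CPM after TAC (SDs, n = 3; log2 fold change -0.51, SE 0.13, edgeR adjusted p = 0.0759). Lysosomal breakdown of glycosphingolipids, the pathway of Gm2a, had 13 tested genes with a median of 0.09. The lysosomal enzyme gene Hexa was at 0.06 (SE 0.13), and the saposin precursor Psap, the most abundant per length, at -0.19 (SE 0.15, adjusted p = 0.456).

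Among 16 genes of epsins and clathrin endocytosis the median was 0.12. The most abundant per length, the adaptor subunit Ap2m1, was at 0.14 (SE 0.14, edgeR adjusted p = 0.542). The other epsins Epn1 and Epn2 were at -0.13 (SE 0.11) and -0.28 (SE 0.10). The 16 genes of BLOC-1, BORC and the Snap25 family had a median of 0.00. Bloc1s1, the most abundant per length, was at -0.27 (SE 0.17, adjusted p = 0.342), and Dtnbp1, dysbindin, at 0.04 (SE 0.12).

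Of 13 listed ephrin-A ligands and EphA receptors 7 were tested, with a median of 0.22. The most abundant per length was the receptor Epha4, at 0.11 (SE 0.20, edgeR adjusted p = 0.740), and the only negative one Epha1, at 1.03 ± 0.0437 CPM in sham hearts against 0.620 ± 0.0435 CPM after TAC (SDs, edgeR adjusted p = 0.206). The 8 PLEKHA family genes, with the junctional partner Pdzd11 among them, had a median of -0.06. Pdzd11, the most abundant per length, was at -0.25 (SE 0.16, adjusted p = 0.345), and Plekha5 at -0.46 (SE 0.12, adjusted p = 0.0728). The 15 genes of the SS18 family and the BAF complex had a median of 0.01, with the heart-enriched subunit Smarcd3, the most abundant per length, at -0.06 (SE 0.16, adjusted p = 0.833). The paralogs Ss18 and Ss18l1 were at 0.09 (SE 0.11) and -0.29 (SE 0.23). The 11 genes of YY1 and the SIN3-HDAC corepressor had a median of -0.00, with Yy1 at -0.00 (SE 0.10) and the most abundant per length, the histone-binding subunit Rbbp7, at 0.03 (SE 0.13, adjusted p = 0.909).

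Of the genomic neighbours of the 9 genes, few passed the edgeR test, while more lay low without overlap than among all genes. Within 250 kb of one of the genes 94 others were tested, and 2 were higher and 0 lower (edgeR quasi-likelihood test), where 1.66% of all genes were called. The 2 were S100a8 and S100a9, the calprotectin genes of neutrophils, near Snapin (log2 fold changes 4.97, SE 0.84, and 4.77, SE 0.77, adjusted p = 0.0363 and 0.0327). Of the 94, 26 lay without overlap on the low side and 15 on the high side, against 13.1% and 18.4% of all genes tested. At an unadjusted p under 0.05, 14 neighbours were higher and 18 lower, against 16.3% and 9.26% of all genes. DESeq2 called 8 higher and 12 lower, where it called 7.26% of all genes higher and 4.06% lower. With limma-voom 0 were higher and 2 lower, the calcium channel gene Cacna1g and the cartilage matrix gene Chad. That fit called 96 of all genes higher and 75 lower. The median of the 94 was -0.05, against 0.03 for all genes tested. Without TAC replicate 1, 11 were called higher and 18 lower, 17 of them among the 94 and 1 that passes the filter on low counts only then. In that fit 1837 of all genes were called higher and 1392 lower. Without TAC replicate 2 no neighbour was called, nor without any one sham replicate. Leaving out TAC replicate 3 gave 0 higher and 2 lower, where 82 and 52 of all genes were called.

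Around the 3 genes with the largest differences edgeR called no neighbour. Beside Agpat4, the kinase gene Map3k4, 7976 bases away, was at -0.04 (SE 0.12) on the log2 scale. Next to Ndrg4, the methyltransferase gene Setd6, 762 bases away, was at -0.12 (SE 0.17) and the replication gene Gins3 at 0.44 (SE 0.51). DESeq2 called 5 neighbours of Ss18l2, Sec22c, Trak1, Zfp651 and Hhatl lower and Klhl40 higher. Beside Ss18l2, the vesicle traffic gene Sec22c was at -0.70 (SE 0.15, edgeR adjusted p = 0.0612) and Nktr, a cyclophilin gene, at 0.58 (SE 0.21, adjusted p = 0.135).

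Near Epn3, Plekha6 and Gm2a some neighbours had larger negative values than the genes themselves, none past the threshold in edgeR. Of all neighbours of these genes, DESeq2 called Chad, Cacna1g, Ren1, Ccdc69, Gpx3 and Slc36a1 lower and Luc7l3 and Tnip1 higher. With limma-voom Chad and Cacna1g were called lower. Nearest to Epn3 were Spata20 at -0.61 (SE 0.99) and Rsad1 at -0.23 (SE 0.12). Further off, Chad was at -2.01 (SE 0.41, edgeR adjusted p = 0.0553) and Cacna1g at -1.42 (SE 0.29, adjusted p = 0.0555), named here after their values were seen. Beside Plekha6 the phosphatase regulator Ppp1r15b was at 0.04 (SE 0.13), and the renin gene Ren1, with 0.811 CPM in sham and 0.0706 in TAC on average, at -3.45 (SE 0.75, adjusted p = 0.0602). Beside Gm2a, Ccdc69 was at -0.90 (SE 0.21, adjusted p = 0.0632) and the amino acid transporter gene Slc36a2 at -1.50 (SE 0.47, adjusted p = 0.103). Of the 8 tested neighbours of Gm2a, 6 lay without overlap on the low side, a pattern of 13.1% of all genes tested.

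**Figure D5:**
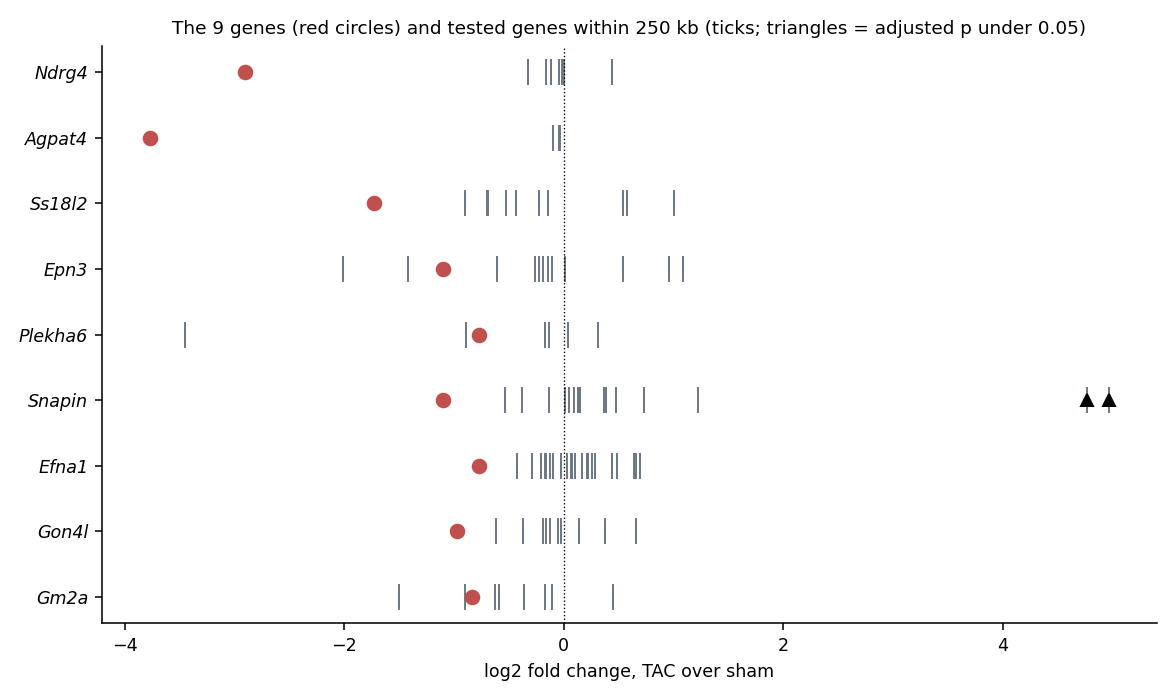
Log2 fold change of TAC over sham (x axis) for the 9 genes (red circles, 1 row each) and the tested genes within 250 kb of them (ticks), with triangles on those that edgeR called. Around Agpat4 and Ndrg4 the ticks lie near 0, and the only triangles are S100a8 and S100a9 in the row of Snapin.

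Gon4l, Efna1 and Snapin lie within 1656 kb of chromosome 3, and 1 of the 46 other genes tested between them was called. They had a median log2 fold change of 0.04, with 7 genes without overlap on each side, against 13.1% of all genes tested on the low side and 18.4% on the high side. Next to Gon4l, the synaptotagmin gene Syt11 was at -0.37 (SE 0.13, edgeR adjusted p = 0.137). Next to Efna1, the sugar transporter gene Slc50a1 and the metalloprotease gene Adam15 were at 0.10 (SE 0.12) and 0.16 (SE 0.14), and next to Snapin the chromatin target gene Chtop was at 0.05 (SE 0.10). The called gene was the tropomyosin gene Tpm3, whose log2 difference was -1.76 (SE 0.21; adjusted p = 0.0122, edgeR). Its counts are uncertain. A related copy, Tpm3-rs7 on chromosome 14, is the gene with the largest upward gap, both had fractional counts, and how shared reads were counted is not stated. Tpm3 had 1961 to 2338 estimated counts in sham and 499 to 861 in TAC, and Tpm3-rs7 had 3.60 to 4.73 and 1404 to 2473.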

How the data were processed

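The deposited table holds 2 columns per library. Per the file headers these are the estimated count and the FPKM, the latter scaled by length and depth and rounded by the authors to 2 decimals. The tools named are StringTie 1.3.1, Bowtie2 2.2.8, DESeq2 and HISAT2, with the build GRCm38, per the submitters' processing notes; these give neither role nor annotation. Per the labels' protocols, poly(A) RNA was used, with no statement on strand. Symbols came from GENCODE M21 (GRCm38), which matched 22255 of 22298 identifiers, and groups from the sample titles. Estimated counts were rounded. Genes were filtered by filterByExpr (count minimum 10), scaled by TMM and tested by the quasi-likelihood test of edgeR 4.0.16, run under R 4.3.3 (two-sided, Benjamini-Hochberg adjustment over 13708 genes, threshold 0.05), and the script was tested on simulated data. The printed SE is the log2 fold change over the root of F. Log2 CPM used a prior count of 2. Implied length is the estimated count divided by FPKM and by the library total, and its background share covers genes whose lowest library reached 200 counts and 1 FPKM. P-values measure the spread between samples, which may be technical.

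The 9 genes and all lists were chosen with earlier results of these data known. Named by rule were the 9 genes, called stress genes with Nppa and Acta1, per partner list up to 2 called genes or else the most abundant per length, called and nearest neighbours within 250 kb, and the 5 largest gaps each way among genes averaging 1 CPM or more and with a symbol that is no clone or model name. Other names were chosen after their values were seen. Some genes that the rule or lists hold are not reported here. Alternatives were DESeq2 size factors, DESeq2 1.42.0, limma-voom (limma 3.58.1), 2 other filters, the replicate block, each library left out, a 1 Mb window, and other scales.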

Additional observations from a re-analysis of the deposited data

How the results depend on the processing

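The log2 fold changes of the 9 genes stayed negative in all 108 alternative values and moved by less than the within-group SD in each. The choice of genes lower in every TAC heart fixes this sign. Counts of calls were less stable. DESeq2's Wald test called 1063 genes higher and 594 lower, with 2 and 3 partner-list genes, 9 stress genes, and 8 and 12 neighbours. With limma-voom 96 genes were higher, and 0 neighbours were higher and 2 lower. Leaving out 1 library gave 4 to 1837 higher and 8 to 1392 lower genes, 0 to 7 partner-list genes each way, 0 to 12 stress genes, and 0 to 11 higher and 0 to 18 lower neighbours. Each of these maxima came without TAC replicate 1, and the cause was not tested. Within 1 Mb of the 9 genes 3 neighbours were higher and 3 lower. With the replicate block 48 genes were higher and 26 lower, and 0 neighbours higher. Same-numbered samples did not deviate together (r of -0.11 to 0.01), and not every sample correlated best with its own number. With 3 samples per group, whether they share more than a number cannot be told from this. The median percent present in TAC replicate 1 was 98.8% on linear CPM and 112% on log2 of FPKM plus 0.1 for the 9 genes, and 18.8% on linear CPM for the called stress genes. Leaving out 1 library gave 96.3% to 99.2% and 45.9% to 53.0%. The few reads of Agpat4 in TAC limit the precision of its fold change.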
